A study of Arabidopsis thaliana with 8 samples.

Results

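The genes described here are 34 nuclear loci of Arabidopsis thaliana whose products serve the plastid's own gene expression: 23 plastid ribosomal proteins and 11 proteins of plastid transcription. They were taken as a fixed list of loci and matched to the probes of the array through the probes' transcript accessions, and the brightest probe stood for each locus. Of the 34, 33 had a probe, and all 33 were detected on all 8 arrays, out of 20629 genes tested. No probe carried the accession of SIG1 (AT1G64860), a sigma factor, which was not analysed here. Total RNA of Columbia-0 plants was measured on one-colour Agilent arrays in 4 groups of 2 biological replicates. Mature leaves were the older 3 leaves, cotyledons left out, and young leaves the newer 3 leaves, both of 21-day plants. The other groups were the aerial part of 21-day plants and whole plants 2 days after germination. The labels name no mutation, transgene or treatment. All plants were kept in the dark at 4 °C for 3 days and then grew on agar plates at 22 °C in cycles of 16 h of light and 8 h of darkness.

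Plastids descend from bacteria and keep a small genome with a bacterial kind of ribosome. Most of that ribosome's proteins are encoded in the nucleus, made in the cytosol and imported. Plastid genes are read by a nucleus-encoded polymerase of the phage type, RPOTp, and by a bacterial-type polymerase with a plastid-encoded core, which needs nucleus-encoded sigma factors to find promoters and a set of attached proteins, many named PTAC for plastid transcriptionally active chromosome, to work. This machinery is known to be built up early in leaf development, as proplastids become chloroplasts. No probe on the array belonged to a locus of the plastid chromosome (0 loci), so the plastid-encoded ribosomal proteins and polymerase core were not analysed here.

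Levels are given as relative signal, the background-subtracted signal of a probe divided by the 75th percentile of its array, and they are compared between samples of 1 gene only. A gene was called higher or lower at an adjusted p under 0.05 (limma, Benjamini-Hochberg over all 20629 genes), and errors after the ± sign are standard errors of that fit with n = 2 arrays per group. Between 66.7% and 74.6% of probes were well above background on an array. The 75th percentile itself was 489.8 and 520.4 signal units in mature leaves, against 805.9 to 1059 on the other 6 arrays, whereas the mean log2 signal of 7 spike-in control probes lay between 11.28 and 11.44 on all 8. Mature and young leaves shared 1 slide and scan, and the 21-day aerial part and the 2-day plants shared the other, so each comparison of the study lies within a slide. A comparison across the pairs cannot be told apart from the slide.

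Mature leaves had lower transcript levels than young leaves for every one of the 23 plastid ribosomal protein genes, by a median of 1.01 on the log2 scale. The falls ran from 0.37 to 1.54, and 13 genes fell at least 2-fold. Of the transcription genes 6 fell, the polymerase RPOTp and PTAC12 most of all, while the sigma factors SIG5 and SIG3 rose. Both leaf classes were taken from plants of the same age, and their comparison is named in the study's design. Over all genes tested 35.8% were called higher and 35.5% lower (71.3% in either direction), 18.5% were lower by at least 2-fold, and the median change was 0.04. In bulk samples, fewer cells of a type and less RNA per cell cannot be told apart.

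Among the ribosomal proteins, RPL9 (AT3G44890, a large-subunit protein) changed most. Its relative signal was 17.3 and 16.9 in mature leaves, against 47.9 and 52.0 in young leaves. The groups were far apart compared with their replicates, and the log2 fold change was -1.54 ± 0.08 (limma adjusted p = 1.65e-05). EMB3113 (AT2G33800), listed as a plastid ribosomal protein, had 8.22 and 7.86 in mature leaves, against 20.8 and 22.4 in young leaves. RPL4 (AT1G07320), whose counterpart in Escherichia coli lines the exit tunnel of the growing chain, had 20 and 19.1 in mature leaves, against 45.8 and 46.9 in young leaves. Both fell more than 2-fold, with log2 fold changes of -1.43 ± 0.08 for EMB3113 and -1.25 ± 0.08 for RPL4 (limma adjusted p = 2.42e-05 and 4.94e-05).

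At the other end stood RPS1, PRPL1 and RPL24. RPS1 (AT5G30510), named for the protein that helps the small subunit bind mRNA in Escherichia coli, had 10.5 and 10.8 in mature leaves, against 13.2 and 14.4 in young leaves, a log2 fold change of -0.37 ± 0.09 (limma adjusted p = 0.00935). PRPL1 (AT3G63490, large subunit) had 36.1 and 36.4 in mature leaves, against 47.2 and 49.1 in young leaves, a log2 fold change of -0.41 ± 0.10 (limma adjusted p = 0.00974). RPL24 (AT5G54600, large subunit) had 37.7 and 35.0 in mature leaves, against 51.8 and 52.2 in young leaves, a log2 fold change of -0.52 ± 0.07 (limma adjusted p = 0.000987). The leaf classes did not overlap for any of these, but of all genes 42.5% lay wholly lower in mature leaves and 45.1% wholly higher. The falls were small, and those of RPS1 and PRPL1 were not called with median scaling or without young leaves replicate 2 (RPS1 -0.11 and -0.31, PRPL1 -0.15 and -0.38).

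The ribosomal genes as a set were spread less widely than all genes. The quartiles of the 23 log2 fold changes were -1.16 and -0.77, with an SD of 0.30 across genes, against 1.43 over all genes. Of the 15 genes whose subunit the gene table gives, the 4 of the small subunit had a median of -0.93 and the 11 of the large subunit a median of -1.09, and the difference was not tested. The 8 others had a median of -0.79. With spike-in scaling the median was -1.92 for the ribosomal genes and -0.87 for all genes, and with median scaling it was -0.76 and 0.30. Both scalings shift all genes of an array alike. Quantile normalization and normexp background correction, which do not, gave ribosomal medians of -0.98 and -1.08 and medians over all genes of 0.03 and 0.22.

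**Figure D1:**
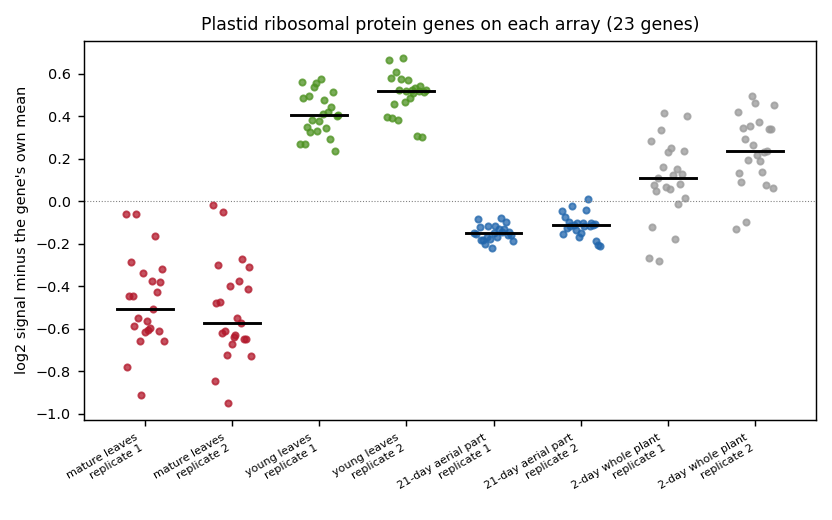
Log2 relative signal of the 23 plastid ribosomal protein genes on each of the 8 arrays, minus each gene's mean over the arrays. Each point is a gene and each bar the median of an array. The young-leaf arrays lie highest and the mature-leaf arrays lowest.

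Several genes had more than 1 probe, and these gave a check on the size of the fall. All probes of each of the 15 such members, 33 probes in all, were called lower in mature leaves. In 12 of the 15 the brightest probe showed the smallest fall of its gene, with a median of -1.07 for the brightest probes and -1.40 for the others. PRPL1 differed most, at -0.41 ± 0.10 for its brightest probe and -0.89 ± 0.11 and -1.02 ± 0.13 for the others, so its place near the end of the order rests on 1 probe. RPL12-C (AT3G27850), named after its values were seen and part of the stalk that recruits translation factors, fell by 1.17 and 1.12 on its 2 probes. It has related neighbours in RPL12-A and RPL12-B. RPL12-A had a log2 fold change of -0.49 ± 0.09, and RPL12-B had a probe but was not among the genes tested. Sequences were not compared, and what these genes contribute to the signal of RPL12-C was not tested.

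**Figure D2:**
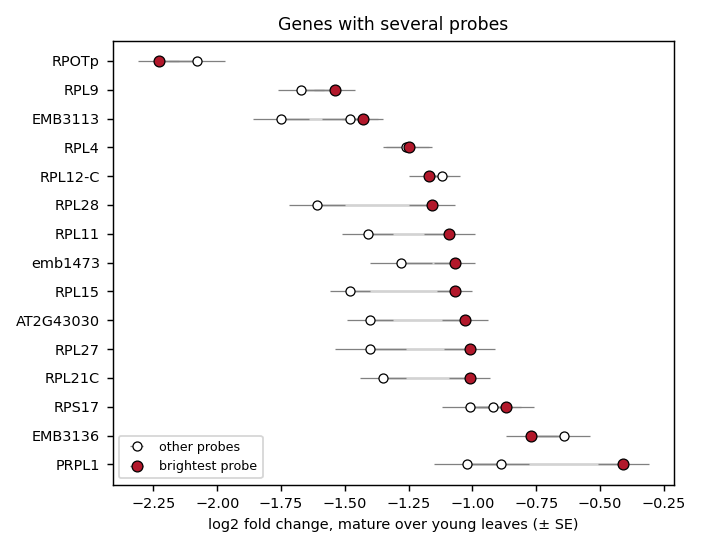
Log2 fold change of mature over young leaves, with its standard error, for each probe of the 15 genes with several probes. The filled point is the brightest probe, used throughout, and open points are the other probes. All lie below 0, and PRPL1 spans from -1.02 to -0.41.

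The transcription genes did not move together. RPOTp (AT2G24120), the phage-type polymerase, had a relative signal of 0.333 and 0.345 in mature leaves, against 1.51 and 1.68 in young leaves. It was 4.69-fold lower in mature leaves, a log2 fold change of -2.23 ± 0.08 (limma adjusted p = 5.58e-06), and its second probe gave -2.08 ± 0.11. PTAC12 (AT2G34640), also known as HEMERA and found in both the plastid polymerase complex and the nucleus, had 1.51 and 1.42 in mature leaves, against 6.44 and 7 in young leaves. It was 4.59-fold lower in mature leaves, a log2 fold change of -2.20 ± 0.08 (limma adjusted p = 5.84e-06). Both fell by more than any of the 23 ribosomal genes.

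The other polymerase-associated proteins fell by amounts like those of the ribosomal genes. PTAC14 (AT4G20130), a SET-domain protein, had 0.423 and 0.402 in mature leaves, against 0.844 and 0.892 in young leaves (log2 fold change -1.07 ± 0.12, limma adjusted p = 0.000468). PTAC2 (AT1G74850), a pentatricopeptide repeat protein, had 1.05 and 1.09 in mature leaves, against 1.88 and 2.08 in young leaves (-0.88 ± 0.11, limma adjusted p = 0.000749). PTAC6 (AT1G21600), needed for the activity of the bacterial-type polymerase, had 4.41 and 5.13 in mature leaves, against 7.06 and 8.76 in young leaves (-0.73 ± 0.15, limma adjusted p = 0.00525). None of the 3 overlapped between the leaf classes, where 42.5% of all genes lay wholly lower in mature leaves and 45.1% wholly higher.

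The sigma factors went different ways. SIG5 (AT5G24120), known for its induction by light and stress and for transcription of the photosystem II gene psbD, had 6.85 and 4.93 in mature leaves, against 0.685 and 0.397 in young leaves. It was 11.1-fold higher in mature leaves, a log2 fold change of 3.48 ± 0.36 (limma adjusted p = 0.000291). Its replicates differed more than those of most genes, with a replicate SD of 0.43 on the log2 scale against a median of 0.11 over all genes, and 92.9% of genes had a smaller one. Replicate 2 lay below replicate 1 in mature leaves, young leaves and the 21-day aerial part, by 0.47, 0.79 and 0.70 on the log2 scale, and above it by 0.37 in 2-day plants. The rise was several times that spread and was called under every alternative tried, at 2.57 to 3.87.

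SIG3 (AT3G53920), known for transcription of psbN, had 6.28 and 6.82 in mature leaves, against 3.62 and 4.25 in young leaves. It rose 1.67-fold, a log2 fold change of 0.74 ± 0.12 (limma adjusted p = 0.00217), but under spike-in scaling, where the median of all genes was -0.87, its change was -0.17 with a limma adjusted p of 0.276. SIG2 (AT1G08540), needed for the plastid tRNA-Glu gene, had 2.86 and 2.98 in mature leaves, against 3.49 and 4.00 in young leaves, a log2 fold change of -0.36 ± 0.10 (limma adjusted p = 0.0169) that was not called with median scaling (-0.10), without young leaves replicate 2 (-0.26) or without mature leaves replicate 1 (-0.33). SIG4 (AT5G13730), known for transcription of ndhF, and SIG6 (AT2G36990), of early seedling chloroplasts, were not called. SIG4 had 8.68 and 9.81 in mature leaves, against 10.3 and 11.7 in young leaves (-0.25 ± 0.13, limma adjusted p = 0.122). SIG6 had 10.9 and 11.2 in mature leaves, against 11.8 and 13.0 in young leaves (-0.16 ± 0.10, limma adjusted p = 0.198). Both were called lower with normexp background correction (SIG4 -0.35, SIG6 -0.23) and with spike-in scaling (SIG4 -1.16, SIG6 -1.07). With the replicate block SIG4 was called lower as well (-0.25, limma adjusted p = 0.0266).

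**Figure D3:**
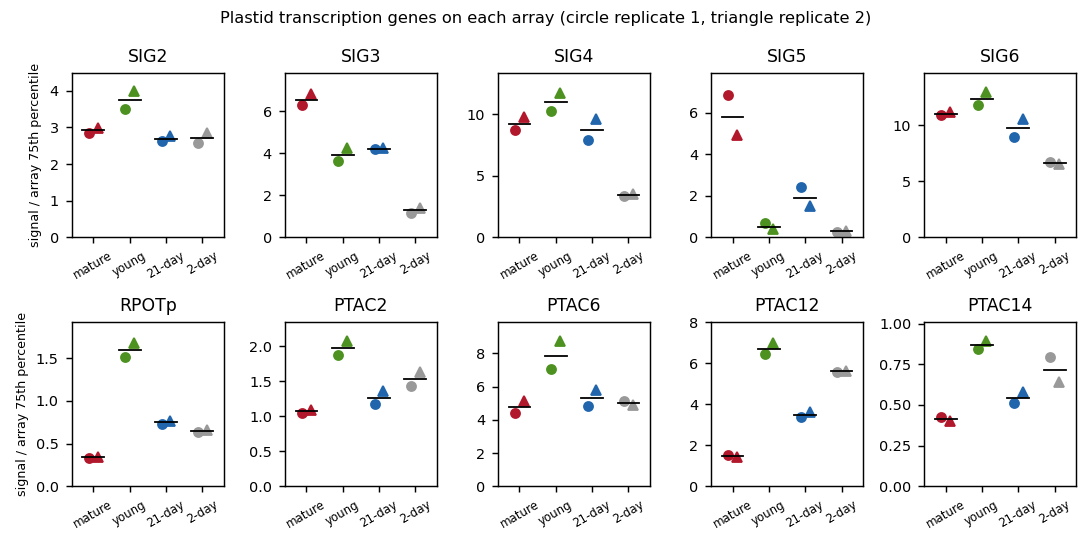
Relative signal (linear, from 0) of the 10 transcription genes measured, in mature leaves, young leaves, the 21-day aerial part and 2-day whole plants. Circles are replicate 1, triangles replicate 2, and bars the geometric means. SIG5 reaches 6.85 in mature leaves, while RPOTp and PTAC12 are lowest there.

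In all, 2 of the 33 members measured were higher and 29 lower in mature leaves, and 2 were not called. The mature-leaf arrays lay wholly below the young-leaf arrays for 31 members and wholly above them for 2, and over all genes these shares were 42.5% and 45.1%. Markers of dividing cells moved with the fall: 5 of 5 were lower, and their summed relative signal was 0.255 to 0.273 in mature leaves, against 4.66 to 4.68 in young leaves, with CYCB1;1 not detected in mature leaves. The 4 mesophyll markers summed to 2140 to 2210 in mature leaves, against 1500 to 1520 in young leaves, and 3 of them were higher. The 4 senescence markers summed to 3.69 to 3.92 in mature leaves, against 0.2 on both arrays of young leaves. Of these, ORE1 made up most of the mature-leaf sum, at 3.88 and 3.67. It was 54.7-fold higher in mature leaves (log2 fold change 5.77 ± 0.10, limma adjusted p = 1.53e-06). WRKY53 was called lower (limma adjusted p = 5.55e-05) and was not well above background on either mature-leaf array. SAG12 was detected in neither leaf class. SAG13 was not detected in young leaves nor on both arrays of mature leaves, and it was not among the genes tested. The part of these cells in the result was not tested.

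The second comparison of the design is that of the 21-day aerial part with 2-day whole plants. It sets the shoot of the older plant against the seedling, and age and organ differ together in it. Of the 23 ribosomal genes, 17 were lower and 0 higher at 21 days, with a median of -0.34 and a range of -0.62 to 0.10, and none changed 2-fold. Of the 10 transcription genes 5 were higher, 4 of them sigma factors, and 2 lower. Over all genes 34.8% were called higher and 40.3% lower (75.1% in either direction), with a median of -0.07. The ribosomal median was -0.31 without 21-day aerial part replicate 1 and -0.26 without 2-day whole plant replicate 2, against -0.06 and -0.08 over all genes. Fewer ribosomal genes were called lower in both cases. Without 21-day aerial part replicate 1 their share called lower was close to that over all genes. Root markers moved with the groups: 6 of 6 were lower at 21 days, with a summed relative signal of 8.62 to 10.4 in the 21-day aerial part, where EXPA7, EXPA18, COBL9 and PLT1 were not detected, against 207 to 226 in the 2-day whole plants, which hold roots. PYK10 made up most of that sum, at 9.35 and 7.62 in the 21-day aerial part, against 202 and 221 in 2-day plants. Dividing-cell markers were lower in 5 of 5, at 3.23 to 3.61 in the 21-day aerial part, against 9.78 to 10.7 in 2-day plants. Mesophyll markers were higher in 4 of 4, at 1600 to 1630 in the 21-day aerial part, against 979 to 1110 in 2-day plants. Floral organ markers were higher in 4 of 4, at 0.697 to 0.871 in the 21-day aerial part, against 0.0288 to 0.0295 in 2-day plants, where AP1, AG and AP3 were not detected. Senescence markers summed to 1.15 to 1.17 in the 21-day aerial part, against 0.301 to 0.331 in 2-day plants, with 1 of the 2 tested higher and 1 lower. The part of these cells in the result was not tested.

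RPL35 (AT2G24090, large subunit) had 28.8 and 28.4 in the 21-day aerial part, against 43.3 and 44.9 in 2-day plants, and RPL9 had 28.8 and 30.4 in the 21-day aerial part, against 43.4 and 45.9 in 2-day plants. EMB3113 had 12.7 on both arrays of the 21-day aerial part, against 17.2 and 18.9 in 2-day plants. These were the largest falls among the ribosomal genes, at -0.62 ± 0.07, -0.60 ± 0.08 and -0.51 ± 0.08 on the log2 scale (limma adjusted p = 0.000433, 0.000632 and 0.00147). The value of EMB3113 is that of its brightest probe. Its other probes gave -0.45 ± 0.11, called lower, and -0.25 ± 0.11, not called. Of the 15 members with several probes, 13 had the same call on all probes in this comparison, and 0 had opposite calls. RPL9 and EMB3113 were also the members that fell most among the ribosomal genes in mature leaves.

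The highest log2 fold changes among the ribosomal genes were those of RPS1, PRPL1 and AT3G54210, listed as a plastid ribosomal protein, and none of them was called. RPS1 had 9.86 and 10.6 in the 21-day aerial part, against 9.10 and 10.0 in 2-day plants (0.10 ± 0.09, limma adjusted p = 0.34). PRPL1 had 32.7 and 37.1 in the 21-day aerial part, against 31.0 and 35.2 in 2-day plants (0.07 ± 0.10, limma adjusted p = 0.509). AT3G54210 had 80.6 and 85.7 in the 21-day aerial part, against 75.2 and 93.4 in 2-day plants (-0.01 ± 0.12, limma adjusted p = 0.934). The groups overlapped in all 3. In 2-day plants replicate 2 exceeded replicate 1 in 22 of the 23 ribosomal genes, by a median of 0.14 on the log2 scale, against -0.01 over all genes. The same held for 22 of 23 in young leaves, by a median of 0.11, for 15 in the 21-day aerial part and for 4 in mature leaves. The cause of these differences was not tested.

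Among the sigma factors, SIG5 had a relative signal of 2.44 and 1.5 in the 21-day aerial part, against 0.256 and 0.331 in 2-day plants. It was 6.57-fold higher at 21 days (log2 fold change 2.72 ± 0.36, limma adjusted p = 0.000751). SIG3 had 4.19 and 4.26 in the 21-day aerial part, against 1.18 and 1.42 in 2-day plants, and rose 3.26-fold (1.71 ± 0.12, limma adjusted p = 5.79e-05). Both were well outside the spread of their replicates. SIG4 had 7.92 and 9.63 in the 21-day aerial part, against 3.34 and 3.54 in 2-day plants, and rose 2.54-fold (1.34 ± 0.13, limma adjusted p = 0.000186). SIG6 had 9 and 10.6 in the 21-day aerial part, against 6.73 and 6.54 in 2-day plants, and rose 1.47-fold (0.56 ± 0.10, limma adjusted p = 0.0029). With spike-in scaling SIG6 was 0.27 higher on the log2 scale and not called. SIG2 had 2.63 and 2.76 in the 21-day aerial part, against 2.57 and 2.86 in 2-day plants, and its groups overlapped (-0.01 ± 0.10, limma adjusted p = 0.921).

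RPOTp, which fell most between the leaf classes, had 0.733 and 0.766 in the 21-day aerial part, against 0.633 and 0.659 in 2-day plants. The change of 0.21 ± 0.08 on the log2 scale passed narrowly (limma adjusted p = 0.047), was lost on leaving out any 1 of the 8 arrays, and was -0.07 with spike-in scaling. PTAC12 had 3.37 and 3.62 in the 21-day aerial part, against 5.56 and 5.65 in 2-day plants, a log2 fold change of -0.68 ± 0.08 (limma adjusted p = 0.000417). PTAC14 had 0.512 and 0.581 in the 21-day aerial part, against 0.797 and 0.643 in 2-day plants (-0.39 ± 0.12, limma adjusted p = 0.028), and its call was lost without 2-day whole plant replicate 1 (-0.24), without 21-day aerial part replicate 1 (-0.30), with median scaling (-0.33) and with only the 4 arrays compared. PTAC2 and PTAC6 were not called. PTAC2 had 1.17 and 1.36 in the 21-day aerial part, against 1.43 and 1.64 in 2-day plants (-0.28 ± 0.11, limma adjusted p = 0.0637), and it was called lower under 5 alternatives, at -0.28 to -0.57. PTAC6 had 4.84 and 5.80 in the 21-day aerial part, against 5.14 and 4.90 in 2-day plants (0.08 ± 0.15, limma adjusted p = 0.657).

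**Figure D4:**
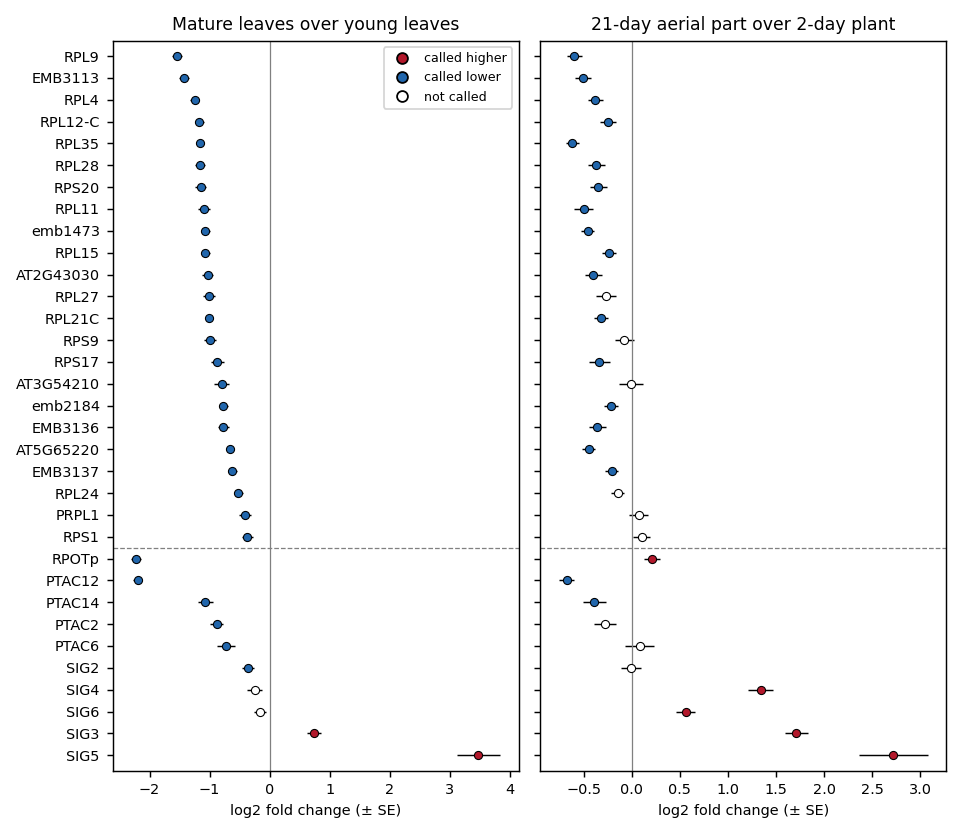
Log2 fold changes with standard errors of the 33 genes measured, mature over young leaves on the left and the 21-day aerial part over 2-day plants on the right. Ribosomal genes stand above the dashed line and transcription genes below it. All ribosomal genes lie below 0 on the left, and SIG5 lies farthest to the right in both panels.

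Across the 4 groups, young leaves held the highest mean level for 30 of the 33 members, against 19.4% of all genes. The exceptions were SIG3 and SIG5, highest in mature leaves, and AT5G65220, also named after its values were seen, highest in 2-day plants, where it had 31.9 and 34.3, against 31.9 and 33.4 in young leaves. Mature leaves held the lowest level for 26 members, against 35.8% of all genes. Under the other scalings and with normexp background correction young leaves were highest for 27 to 29 members, against 16.8% to 30.4% of all genes. Mature leaves were lowest for 17 members with median scaling and for 30 with spike-in scaling, against 22.8% and 73.2% of all genes under the same scalings. The 21-day aerial part lay between the leaf classes for 28 of 33 members, against 67.7% of all genes. Since the groups lie on separate slides, this order cannot be told apart from the slide.

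Set against 2-day plants, young leaves were higher in 23 members and lower in 0 (of all genes 72.9% were called, 34.4% higher and 38.5% lower), 15 of the 23 being ribosomal. SIG4 had 10.3 and 11.7 in young leaves, against 3.34 and 3.54 in 2-day plants, a 3.20-fold difference, and RPOTp was 2.46-fold higher. The total fell to 14 without 2-day whole plant replicate 1 and to 13 without young leaves replicate 2, and it was 11 with spike-in scaling. Mature leaves were lower than 2-day plants in 25 members and higher in 4 (of all genes 84% were called, 45.9% lower and 38.1% higher), and the 4 were SIG3, SIG4, SIG5 and SIG6. With median scaling 17 members were lower and 8 higher, 3 of the 8 being ribosomal genes, and of all genes 36% were lower and 49.2% higher. The ribosomal median was then -0.29, against -0.73 with the 75th percentile. Over all genes the median moved as well, to 0.29 from -0.15. SIG5 was 20-fold higher and PTAC12 3.84-fold lower in mature leaves. Both comparisons cross the slides and share samples with those above.

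Other genes of plastid gene expression were taken from lists of known components. Their counts stand beside the shares over all genes given above, 35.8% higher and 35.5% lower in mature against young leaves. Of 16 other plastid ribosomal proteins measured, 0 were higher and 15 lower in mature than in young leaves, with a median of -0.97. AT1G29070 (-1.48 ± 0.10) and AT5G47190 (-1.30 ± 0.08) fell most (limma adjusted p = 4.35e-05 and 3.24e-05). The one not called, PSRP3/2 (AT5G15760), chosen after its values were seen, had 1.08 and 1.05 in mature leaves, against 1.05 and 1.16 in young leaves. Of 19 genes listed as polymerase-associated and nucleoid proteins 18 were lower, with a median of -1.28. This list also holds MGP3 (AT1G68990), a mitochondrial phage-type polymerase, and AT5G15700, a phage-type polymerase too. Both were named after their values were seen, and both were among the 18 lower. PRIN2 (AT1G10522), a redox-linked protein of plastid transcription, had 0.631 and 0.5 in mature leaves, against 4.35 and 4.76 in young leaves, and FLN2 (AT1G69200, fructokinase-like) had 0.536 and 0.443 in mature leaves, against 3.57 and 3.77 in young leaves. Their log2 fold changes were -3.02 ± 0.12 and -2.91 ± 0.12 (limma adjusted p = 8.91e-06 and 8.32e-06).

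Ribosome assembly and RNA maturation genes fell too, at 8 of 8 with a median of -1.16 and 5 of 5 with a median of -1.31. EMB3108 (-1.64 ± 0.11) and EMB269 (-1.49 ± 0.08) led the first list, and the RNA-binding proteins CP29 (-1.62 ± 0.35) and CP33 (-1.62 ± 0.08) the second. CP29 varied between replicates, at 39.6 and 70.0 in mature leaves, against 136 and 193 in young leaves. The 10 translation factors were mixed, with 1 higher, 5 lower and a median of -0.21, and AT2G24060 (-1.24 ± 0.09) and emb2726 (-1.03 ± 0.10) fell most. The difference between the lists was not tested.

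In the 21-day aerial part against 2-day plants, where 34.8% of all genes were higher and 40.3% lower, 11 of the 16 other ribosomal proteins were lower and 0 higher, AT5G47190 (-0.87 ± 0.08) and AT4G01310 (-0.66 ± 0.08) the most. Of the 19 genes listed as polymerase-associated and nucleoid proteins 11 were lower and 4 higher. AT5G15700 was among the 4 higher, and MGP3 was not called. FSD2 (AT5G51100), an iron superoxide dismutase, had 1.58 and 1.94 in the 21-day aerial part, against 7.85 and 6.90 in 2-day plants, whereas PTAC16 (AT3G46780) had 50.6 and 53.0 in the 21-day aerial part, against 17 and 19.6 in 2-day plants. Translation factors were higher in 6 and lower in 2 of 10, led by AT4G30690 (2.09 ± 0.14) and AT5G24490 (1.79 ± 0.27). Assembly genes were higher in 1 and lower in 3 of 8, with EMB269 (-0.61 ± 0.08) and RH39 (-0.46 ± 0.08) falling most, and of the 5 RNA maturation genes 1, PNP (-0.34 ± 0.11), was lower. The shares called lower among the assembly, RNA maturation and translation factor genes did not exceed that over all genes.

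**Figure D5:**
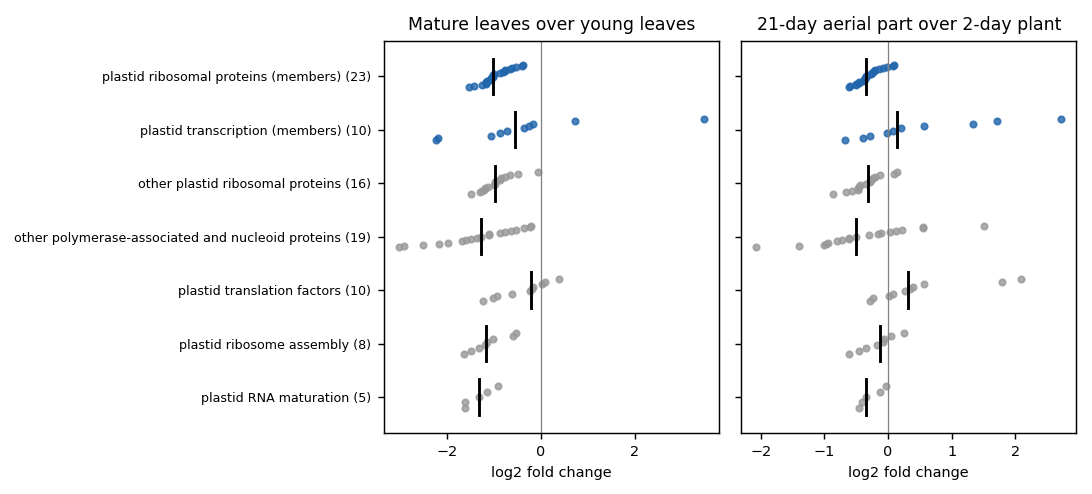
Log2 fold changes of the ribosomal and transcription members (blue) and of 5 other lists of plastid gene expression (grey), mature over young leaves on the left and the 21-day aerial part over 2-day plants on the right. Each point is a gene, bars are medians, and the numbers in brackets are genes measured. The polymerase-associated and nucleoid list also holds the mitochondrial MGP3, and AT5G15700. Sigma factors account for the points farthest right among the transcription members.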

How the data were processed

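Total RNA of 8 samples was hybridised to one-colour arrays. Per the file headers, these are Agilent arrays of design 021169 read with Feature Extraction 10.10.1.1 (protocol GE1_1010_Sep10, grid build TAIR10). In these deposited files each spot has an intensity on a linear scale, background-subtracted within an array and not scaled between arrays, and the deposited value table holds the same intensity times 1 factor per array. Outlier spots were left out, spots of a probe averaged, log2 taken of the deposited intensity and the array's 75th percentile subtracted. A probe had to be well above background in both replicates of some group, and each locus was read from its brightest remaining probe. A linear model of the 4 group means was fitted to 20629 genes over the 8 arrays by limma 3.58.1 (R 4.3.3) using 2-sided tests (residual degrees of freedom 4, prior 1.90), and was tested on simulated data. Precision is limited by the number of arrays.

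The named genes are all transcription members, the 3 highest and 3 lowest ribosomal members of each main comparison and the 2 most changed called genes of each other list. Genes named outside this rule are said to be so. Members and lists were chosen with earlier results of these data known. Alternatives covered background, scaling, probe filter, probe choice, value source, arrays in the fit, variance model, fold threshold, replicate block and each array left out. The files used hold the median and not the mean spot signal, so the normexp correction (offset 50) used the median.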

Additional observations from a re-analysis of the deposited data

How the results depend on the processing

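Every call rests on 2 arrays per group. Of all genes 75.1% were called in either direction in the 21-day aerial part against 2-day plants and 71.3% in mature against young leaves. Against 2-day plants 72.9% were called in young leaves and 84% in mature leaves. Only between the leaf classes did the members' total lie well above its share. The shares fell as well with an array of the compared groups left out. For the 21-day aerial part against 2-day plants 24 members were called, 3 when a 2-fold change was also required, and 14 to 22 with an array left out, the lowest without 21-day aerial part replicate 1. For mature against young leaves 31 were called, 17 with the fold threshold and 28 to 31 with an array left out. For young leaves against 2-day plants 23 were called, 11 with spike-in scaling, 3 with the fold threshold and 13 to 24 with an array left out. For mature leaves against 2-day plants 29 were called, 7 with the fold threshold and 27 to 29 with an array left out. With the fold threshold 15% of all genes were higher and 21.1% lower in the 21-day comparison, and 13.7% and 18.5% between the leaf classes. In young leaves against 2-day plants these shares were 12.4% and 21.3%, and in mature leaves 19.6% and 31.5%. The other alternatives stayed within 1.5 times of the members' totals. In mature leaves against 2-day plants, though, median scaling gave 17 lower and 8 higher in place of 25 and 4. Over all genes it gave 36% lower and 49.2% higher in place of 45.9% and 38.1%. With spike-in scaling RPOTp was -0.07 in the 21-day aerial part against 2-day plants and SIG3 -0.17 in mature against young leaves. Over all genes spike-in scaling gave a median of -0.87 between the leaf classes, with 8.91% higher and 70.0% lower, median scaling gave 47.9% and 27.5%, and normexp 50.3% and 28.7%. Between the 21-day aerial part and 2-day plants spike-in scaling gave 21.5% higher and 47.2% lower. The cause was not tested. The labels do not say that replicate numbers mark shared plants or days. Across genes, replicate deviations correlated at 0.25 to 0.35 among the 3 groups of 21-day plants and at -0.07 to -0.01 between these and 2-day plants, a hint from the data and not the design. With the replicate block 25 and 32 members were called in the 2 main comparisons, PTAC2 being added in the first and SIG4 in the second. Over 20 alternatives, the fold threshold among them, 8 of 33 members kept their result in every one in the 21-day comparison. Of these, SIG3, SIG4 and SIG5 were called higher throughout. RPS1, PRPL1, AT3G54210, SIG2 and PTAC6 were called in none, and their changes took either sign. Between the leaf classes 17 of 33 kept their call and direction in every alternative. The slide as a block was not run, because the group means already span the slides.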
